A study of Mus musculus with 13 samples.

Results

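The 4 Hox clusters of the mouse genome were examined in R-loop maps of N2a cells. The members were the protein-coding genes of GENCODE vM1, the annotation of build mm9, whose symbol is Hoxa, Hoxb, Hoxc or Hoxd followed by a number. This gave 40 gene records of 22380 in all and 39 symbols, since Hoxa3 is annotated as 2 records. Of these, 12 lay in Hoxa, 10 in Hoxb, 9 in Hoxc and 9 in Hoxd. Each gene was given a window of its annotated bounds plus 1 kb on either side, and a gene was called in a library when a peak covered at least 1 base of the window. The covered bases are the number of window bases under peaks, and the covered share is that number as a percentage of the window.

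N2a is a mouse neuroblastoma cell line with neuronal features. R-loops, in which RNA pairs with 1 strand of DNA and leaves the other strand single, were recovered with the S9.6 antibody after the DNA had been cut with restriction enzymes, and the recovered DNA was sequenced (DRIP-seq). The 3 groups were N2a cells transfected with scramble siRNA (siScramble), with siRNA against DDX1, a putative RNA helicase (siDDX1), or with siRNA against EXOSC3, a subunit of the nuclear RNA exosome (siEXOSC3). Each had 3 untreated libraries from separately seeded plates, so the spread between them is that of cultures of 1 line, and 1 library whose DNA had been digested with RNase H before pull-down, which removes the RNA strand of hybrids. The times after transfection are not given in the sources used here. The design asks where hybrids form and whether they change when either protein is depleted.

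The treatment named inside the peak lists differed from the sample title in 12 of 12 lists, always in the same rotation. Peaks under the title siScramble were named siDDX1, those under siDDX1 were named siEXOSC3, and those under siEXOSC3 were named siScramble. Nothing used here settles which is right, so groups below go by title and are to be read as the libraries labelled with that treatment. Tests across the 3 groups and tests of RNase H have the same value under this rotation.

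Hox genes encode homeodomain transcription factors that give cells their position along the body axis. They lie in 4 clusters that arose by duplication, and genes of the same number in different clusters are paralogues, of closely related sequence. Within a cluster low numbers sit at the 3′ end and are used anteriorly, high numbers sit at the 5′ end and are used posteriorly, and genes of a silent cluster are usually held under Polycomb repression.

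Peaks in the untreated libraries lay in only 1 of the 4 clusters. No peak of any of the 9 untreated libraries touched the Hoxa cluster (chromosome 6, 12 records), the Hoxb cluster (chromosome 11, 10 records) or the Hoxd cluster (chromosome 2, 9 records). The Hoxc cluster (chromosome 15, 102750534 to 102868274 with the added bases) held 84 peaks over the 9 libraries, and 82 of them lay in the window of a member. The genes called were Hoxc9 and Hoxc8 in 9 of 9 libraries, Hoxc6 in 7, Hoxc4 in 6 and Hoxc5 in 3. Hoxc10, Hoxc11, Hoxc12 and Hoxc13, the genes at the 5′ end of the same cluster, were called in 0 of 9.

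In all, 5 of 40 Hox records were called in at least 1 untreated library, against 49.9% of all protein-coding genes. The 2 called in 9 of 9 libraries stand beside 26.2% of all genes. Within 1 kb of the annotated gene start, the same 5 of 40 were called at least once, against 34.1% of all genes. Hox windows are short, with a median of 6082 bases against 17420 for all genes, and a shorter window has fewer bases on which a peak can fall. By paralogue number, Hoxc4 was the 1 called member of 4 with number 4, Hoxc5 and Hoxc6 the 1 called member of 3 each, Hoxc8 the 1 of 3 with number 8 and Hoxc9 the 1 of 4 with number 9. Numbers 1, 2, 3, 7 and 10 to 13 had no called member.

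**Figure D1:**
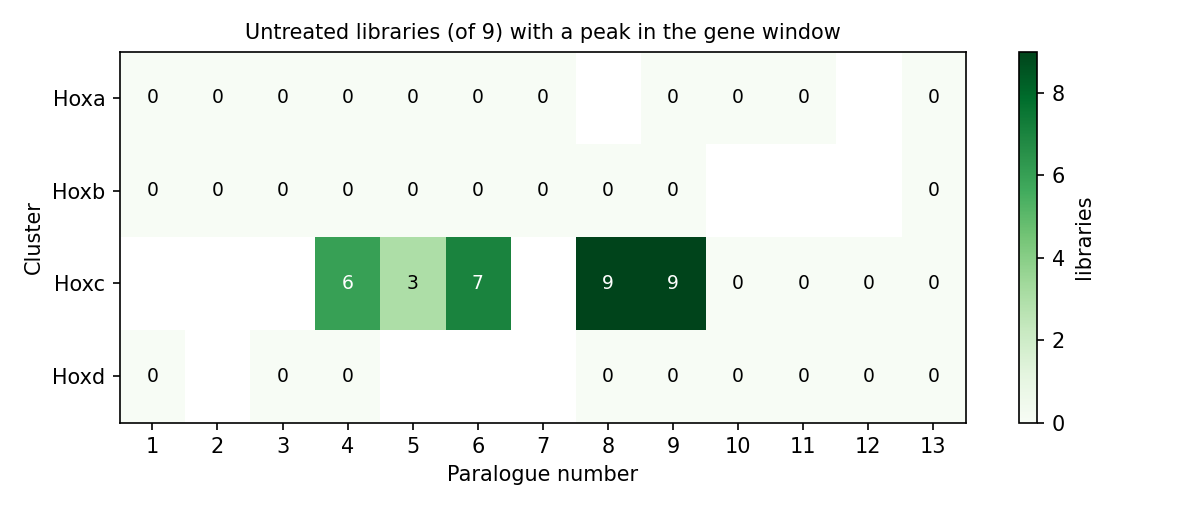
Number of the 9 untreated libraries with a peak in the window of each Hox gene, by cluster (rows) and paralogue number (columns). Empty cells have no gene, the 2 Hoxa3 records share a cell, and values above 0 stand only in Hoxc, for genes 4, 5, 6, 8 and 9.

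The sequence below shows what stood at the left edge of the most constant Hoxc peak. It is from build mm9 and the plus strand, which is the sense strand of the Hoxc genes, and runs of 3 or more G are in capitals. It is the part of the Hoxc9 intron from the common left edge of the peak to the next exon (chr15:102811292-102811522), and it opens with the bases that the enzyme HindIII leaves after its cut.
Hoxc9 intron: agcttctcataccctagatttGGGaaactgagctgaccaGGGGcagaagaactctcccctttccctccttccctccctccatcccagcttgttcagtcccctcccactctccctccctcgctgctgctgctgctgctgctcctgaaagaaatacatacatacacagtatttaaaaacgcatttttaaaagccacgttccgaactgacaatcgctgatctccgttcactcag

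G runs behind a start are a feature often linked to stable R-loops, because a G-rich RNA binds its template strand tightly. The Hoxc9 intron piece was C-rich on the sense strand, with 10 runs of 3 or more C against 2 of G and a GC skew, (G − C)/(G + C), of -0.38. Over the first kb of each gene the median skew was 0.08 for Hoxc4 to Hoxc9 (n = 5, range -0.05 to 0.17) and -0.02 for Hoxc10 to Hoxc13 (n = 4), beside 0.04 for all protein-coding genes. The 250 bases before each start were searched too, on the sense strand only, though they lie outside the annotated gene. GGGG was present there in 1 of 5 genes from Hoxc4 to Hoxc9 and in 3 of 4 from Hoxc10 to Hoxc13. It was present in 25 of 31 records of the other 3 clusters (80.6%) and in 63.9% of all protein-coding genes. The shorter GGG was present in 100% of Hoxc4 to Hoxc9 and in 94.1% of all genes. Runs of 3 or more G numbered 12 before Hoxc9, with a median of 2 for Hoxc4 to Hoxc9 and 4 for all genes. These are descriptions of sequence and were not tested against the peaks.

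Over whole clusters GC content was alike in the cluster with peaks and those without. The CpG ratio and the cut sites differed between clusters, with Hoxc inside the range of the others. GC content was 49.1% in Hoxc, 50.0% in Hoxa, 49.0% in Hoxb and 49.4% in Hoxd, beside 41.8% for the genome. The CpG ratio, observed over expected, was 0.356 in Hoxc, 0.477 in Hoxa, 0.348 in Hoxb and 0.464 in Hoxd. Sites of the 5 enzymes occurred 1.47 times per kb in Hoxc and 1.74, 1.30 and 1.33 times per kb in Hoxa, Hoxb and Hoxd, beside 1.86 in the genome. Peak density differed between the chromosomes, and its relation to the cluster peaks was not tested. Chromosome 11, which carries the empty Hoxb cluster, had 21.5 to 37.5 peaks per Mb over the 9 untreated libraries, and chromosome 15 had 14.6 to 24.5. Chromosome 2 had 10.5 to 19.8 and chromosome 6 had 8.07 to 14.7.

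The 3 empty clusters lay inside longer stretches without a peak in any untreated library. The stretch around Hoxa ran over 1112 kb with 16 protein-coding genes, among them Evx1, a homeobox gene next to the cluster, and Hibadh. The stretch around Hoxb ran over 690 kb with 14 protein-coding genes. The stretch around Hoxd was shorter, 247 kb with 12 protein-coding genes including Evx2, and ended at peaks over Lnp on one side and Mtx2 on the other. Of 69475 stretches between neighbouring peaks of the combined lists, 491 were at least as long as that of Hoxa, 848 as that of Hoxb and 1949 as that of Hoxd.

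Depth as read counts was not used here, and the number of peaks per list stands in for it. The 9 untreated lists held 23882 to 42571 peaks and called 32.4% to 43.1% of protein-coding genes. The number of Hox records called per library was 2, 4 and 5 in siScramble, 4, 4 and 5 in siDDX1 and 4, 3 and 3 in siEXOSC3. The share of all Hox windows under peaks was 2.18% ± 0.557 in siScramble, 1.72% ± 1.43 in siDDX1 and 2.45% ± 0.484 in siEXOSC3 (mean ± SD, n = 3 each), so the groups overlapped. The lists of siScramble replicate 1 and siDDX1 replicate 2 were the shortest, with 23882 and 24167 peaks, and held 5194 and 2246 covered bases in Hoxc windows against a median of 8188. Coverage did not keep the order of list length. The list of siDDX1 replicate 3, with 30338 peaks, held 3881 covered bases, and that of siEXOSC3 replicate 1, with 27391 peaks, held 6707.

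**Figure D2:**
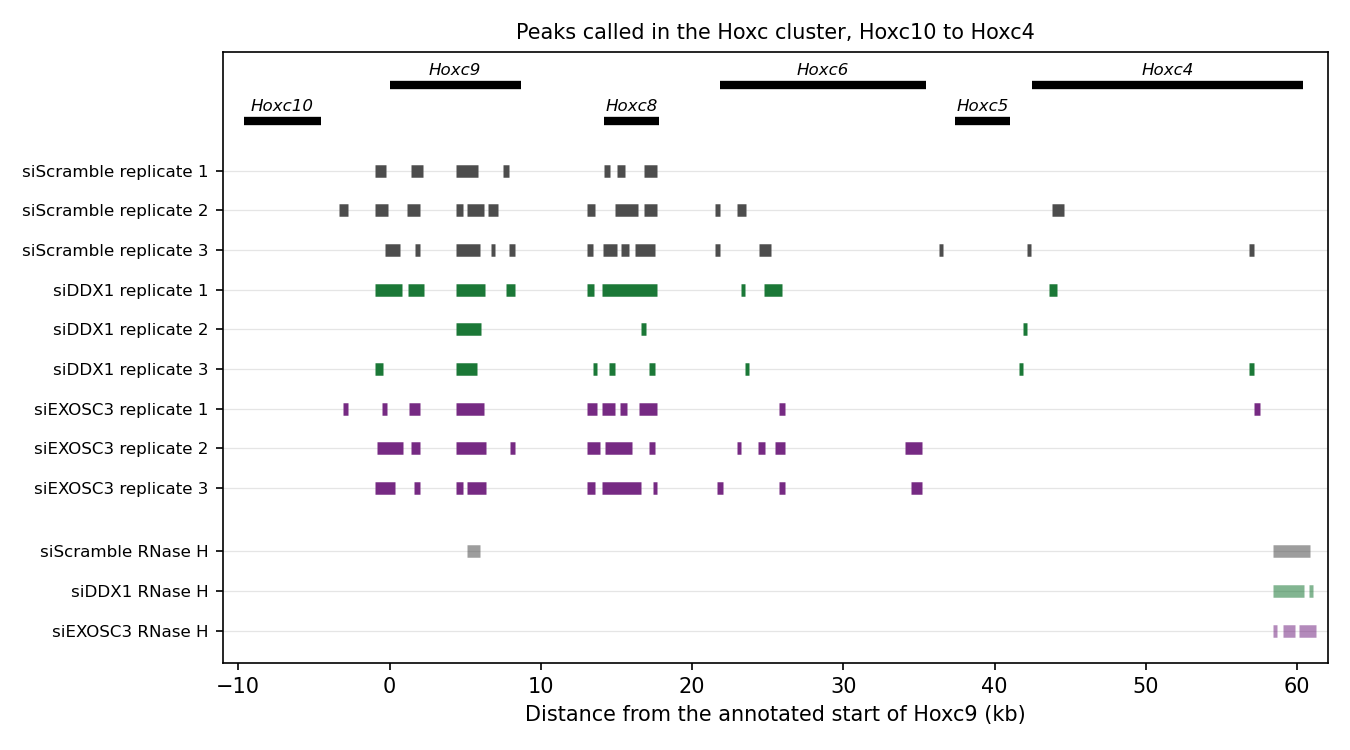
Peaks of the 12 lists along the Hoxc cluster, in kb from the annotated start of Hoxc9 in the direction of transcription, with gene bounds as black bars. Untreated libraries are shown in full colour and the RNase H libraries below them in light colour. Peaks gather over Hoxc9 and Hoxc8 in 9 of 9 untreated libraries, and the 3 RNase H libraries share a peak at the 3′ end of Hoxc4 that no untreated library has.

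Hoxc9, which patterns the thoracic region of the trunk, had the most constant coverage. Its window of 10661 bases held 3453, 3873 and 3624 covered bases in siScramble, 5344, 1629 and 1900 in siDDX1 and 2828, 4643 and 3379 in siEXOSC3. The siScramble values lay close together and within the range of both other groups. The mean share was 32.0% ± 11.2 (SD, n = 9), above 68.2% of the 5868 protein-coding genes called in 9 of 9 libraries, whose median was 18.4%. The window was shorter than the median of 17420 bases for all genes, and a given peak fills a larger share of a shorter window.

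Parts of Hoxc9 were covered in every untreated list. Peaks began at base 102811292 of chromosome 15 in 9 of 9 libraries, the first base after a HindIII cut, and 2 stretches, 102811292 to 102811701 and 102811987 to 102812644, were covered in 9 of 9. They span the end of an intron, the 5′ untranslated part of the following exon and the coding sequence of that exon. The fold enrichment of the strongest peak there ranged from 8.45 to 10.9 with a median of 9.69, above 79.3% to 91.2% of the peaks in the same list. By group it was 9.02 ± 0.589 in siScramble, 9.68 ± 1.07 in siDDX1 and 10.2 ± 0.779 in siEXOSC3 (mean ± SD, n = 3 each), which overlap. The window had further peaks around the annotated start (102805903 to 102807751) in 8 of 9 libraries and in an intron (102808051 to 102809149) in 7 of 9.

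Edges on cut sites were common. Of the 84 untreated Hoxc peaks, 24 had the left edge and 23 the right edge exactly at a cut, allowing for the 4 bases that end repair fills in, and 47 (56.0%) had either. Over chromosomes 2, 6, 11 and 15 together the share was 56.8% of 90467 untreated peaks. An edge at a cut is the end of a restriction fragment and gives no position of a hybrid within it.

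Hoxc8, a thoracic and brachial patterning gene, had the highest covered share of the members. Its window of 5646 bases held 1741, 2767 and 2942 covered bases in siScramble, 3910, 339 and 1118 in siDDX1 and 3012, 2809 and 3219 in siEXOSC3. The siDDX1 libraries held both the highest and the lowest value of the 9. The mean share was 43.0% ± 20.0 (SD, n = 9), above 78.1% of the genes called in 9 of 9 libraries. The short window raises this share, as for Hoxc9, and the rank was not corrected for window length. In siDDX1 replicate 1 most of the gene lay under a single peak of 3594 bases with a fold enrichment of only 3.52.

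The strength of the Hoxc8 peaks parted from their extent in siDDX1 replicate 1, which had the most covered bases and the lowest fold enrichment. Mean covered bases were 2483 ± 649 in siScramble, 1789 ± 1878 in siDDX1 and 3013 ± 205 in siEXOSC3 (mean ± SD, n = 3 each). By group, strength and mean extent were both lowest in siDDX1 and highest in siEXOSC3. The highest fold enrichment in the window was 6.46, 6.42 and 6.76 in siScramble, 3.94, 5.79 and 5.47 in siDDX1 and 6.44, 8.52 and 8.56 in siEXOSC3. All 3 siDDX1 values lay below the 6 others. These maxima came from peaks at different places in the window, so they do not follow the same peak across libraries. That of siDDX1 replicate 1 lay at 102819951 to 102820368, before the gene. That of siEXOSC3 replicate 3 lay at 102824268 to 102824520 and ended at an EcoRI cut. Across the 3 groups the highest fold enrichment gave an unadjusted p of 0.0107 (exact permutation test) and an adjusted p of 0.755 over all genes, so it did not pass. The fold enrichment is a ratio that the authors' peak caller computed for each library alone, against input.

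**Figure D3:**
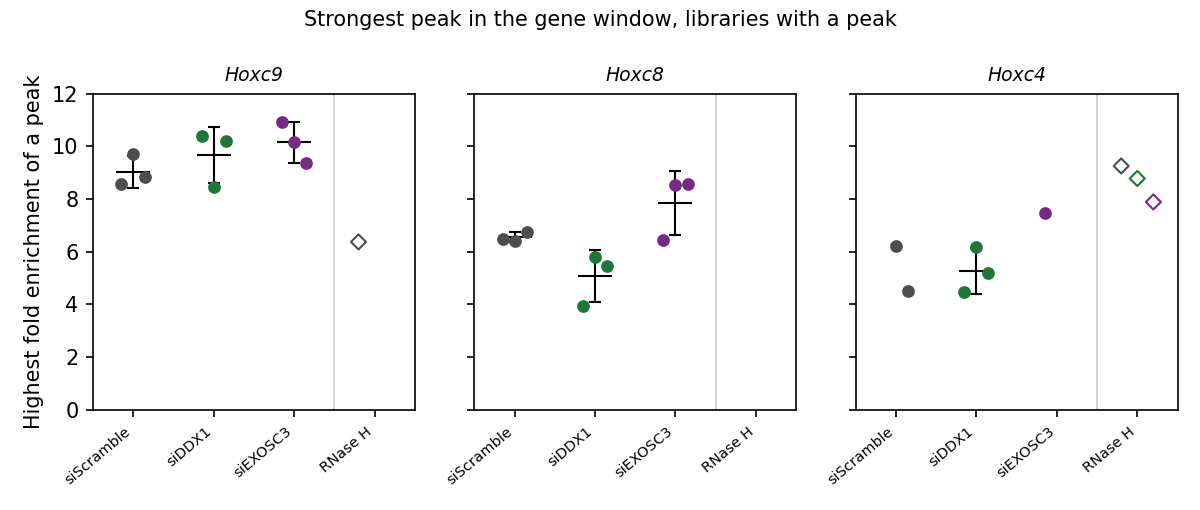
Highest fold enrichment of a peak (linear ratio, as the authors' peak caller gave it) in the windows of Hoxc9, Hoxc8 and Hoxc4, 1 point per library with a peak. Filled points are untreated libraries, with mean and SD where 3 libraries had a peak, and open diamonds are RNase H libraries in the colour of their group. For Hoxc8 the 3 siDDX1 points, 3.94 to 5.79, lie below the 6 others.

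Hoxc6, Hoxc5 and Hoxc4, the anterior genes of the cluster, had lower mean covered shares than Hoxc9 and Hoxc8 and were called in fewer libraries. Hoxc6 held 0, 885 and 1244 covered bases in siScramble, 1490, 0 and 280 in siDDX1 and 442, 2525 and 1590 in siEXOSC3, of 15625. Its coverage came from 16 peaks spread over several places, and no base of its window was covered in 7 or more libraries. Hoxc5 held 0, 0 and 190 bases in siScramble, 0, 135 and 261 in siDDX1 and 0 in all 3 siEXOSC3 libraries, of 5615. The Hoxc5 calls rested on 3 peaks in the added 1 kb, each of which also lay in the window of Hoxc6 or Hoxc4, and with gene bounds alone Hoxc5 was called in no library. Hoxc4 held 0, 812 and 629 bases in siScramble, 580, 278 and 583 in siDDX1 and 425, 0 and 0 in siEXOSC3, of 19908. For each of these genes the groups overlapped or contained zeros in common.

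Across the 3 groups no Hox gene passed. Covered bases were tested by an exact permutation test, in which the group labels were dealt out anew in all 280 distinct ways and F was computed each time, with adjustment over the 11165 genes with a peak in any untreated library. The unadjusted p was 0.357 for Hoxc4, 0.364 for Hoxc6, 0.464 for Hoxc5, 0.493 for Hoxc8 and 0.8 for Hoxc9, and the adjusted p was 1 for all 5. Over all genes 0 passed (0%), and 311 (2.79%) had an unadjusted p under 0.05, of which 0 were Hox genes. The smallest p possible is 0.00357, and 798 genes would have to reach it for any to pass, while 13 did. These values therefore do not show that the groups were alike.

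With peaks called or not called in place of bases, no Hox gene was called in 3 of 3 libraries of one group and 0 of 3 of another. Over all genes such calls were rare. The share was 0.116% for siScramble without siDDX1, 0.0849% for siScramble without siEXOSC3 and 0.0894% for siDDX1 without siScramble. It was 0.0983% for siDDX1 without siEXOSC3, 0.429% for siEXOSC3 without siScramble and 0.371% for siEXOSC3 without siDDX1. With 3 libraries against 3 no two-sided exact p can go below 0.1.

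**Figure D4:**
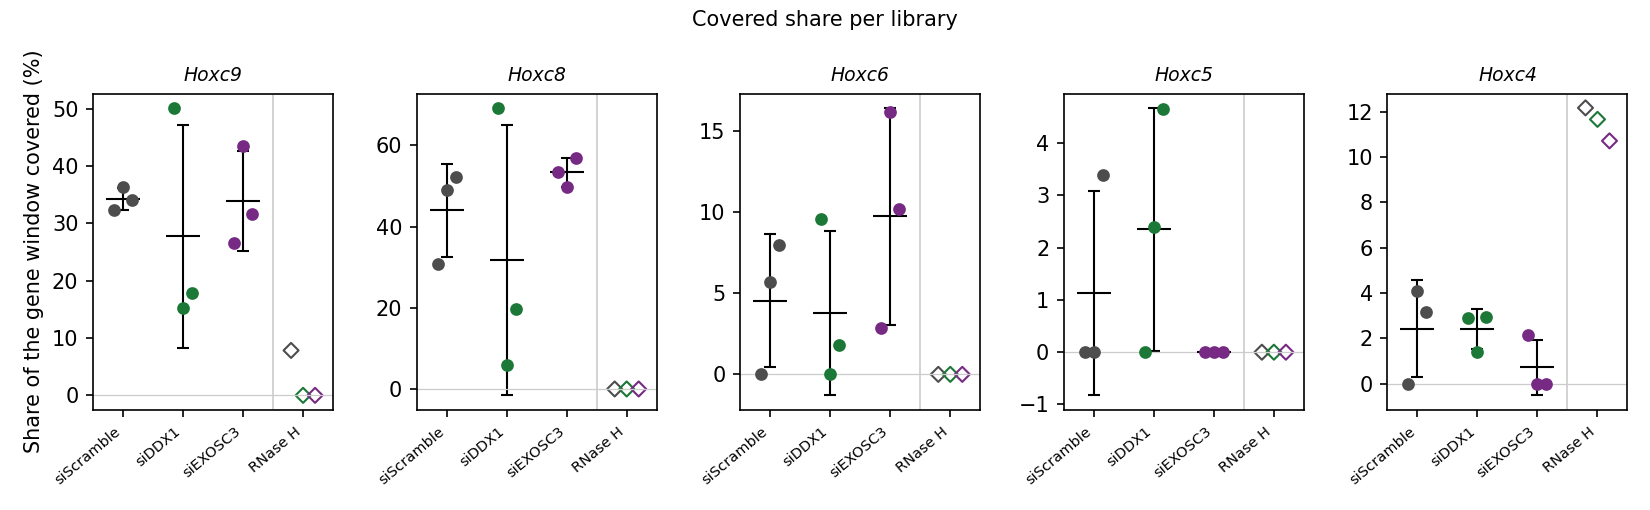
Covered share of the window (%) of the 5 Hoxc genes called in an untreated library, 1 point per library. Bars are mean ± SD of 3 libraries, open diamonds are the 3 RNase H libraries in the colour of their group, and each panel has its own axis. RNase H libraries lie at 0 for Hoxc8 and, for Hoxc9, at 7.83 in siScramble and 0 in siDDX1 and siEXOSC3, below every untreated library. For Hoxc4 they lie between 10.7 and 12.2, above every untreated library.

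Coverage of Hoxc9 and Hoxc8 was lower after RNase H digestion, a call that was lost when every list was held to the same number of peaks. Hoxc9 held 835, 0 and 0 covered bases in the RNase H libraries of siScramble, siDDX1 and siEXOSC3, and Hoxc8 held 0 in all 3. The lowest untreated values were 1629 and 339. RNase H minus untreated was -3130 bases for Hoxc9 and -2429 for Hoxc8 (adjusted p = 0.0388 each, exact permutation test with the RNase H label moved within groups, 64 assignments, two-sided, adjustment over 12125 genes). Over all genes 38.2% were lower by this test and 2.1% were higher. The remaining siScramble RNase H peak (102811995 to 102812829) lay over the constant Hoxc9 stretch with a fold enrichment of 6.37.

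The number of peaks moved with this result, since the RNase H lists held 8034, 3918 and 3811 peaks. With the 3811 strongest peaks of every list, Hoxc9 was called in 5 of 9 untreated and 1 of 3 RNase H libraries (difference -679 bases, adjusted p = 0.354) and Hoxc8 in 0 of 12. Under that setting 0 genes in all passed, 2539 had an unadjusted p under 0.05, and the part of the list length in the result was not tested further. The smallest adjusted p is also close to the threshold. It was 0.0458 to 0.0475 without siScramble replicate 1, siDDX1 replicate 1 or siDDX1 replicate 2. It rose to between 0.0501 and 0.0576 without any 1 of the other 6 untreated libraries, where no gene passed. Hoxc6 and Hoxc5, at 0 in all 3 RNase H libraries, had adjusted p of 0.174 and 0.586.

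Hoxc4 was the 1 Hox gene that passed the test with more coverage after RNase H. Its window held 2423, 2322 and 2133 covered bases in the siScramble, siDDX1 and siEXOSC3 RNase H libraries, all above the highest untreated value of 812. RNase H minus untreated was 1925 bases (adjusted p = 0.0388, same exact permutation test), and with the 3811 strongest peaks of each list it was 2293 bases with an adjusted p of 0.0506. The leave-one-out values given above hold for Hoxc4 as well, since its p was also the smallest possible. Chromosome 15, which carries Hoxc4, had 2.41 to 2.48 times the peak density of the genome in the RNase H lists. In the untreated lists it had 1.46 to 1.77 times that density. Its peaks per Mb were fewer after RNase H, 3.57 to 7.29 against 14.6 to 24.5. The part of this chromosome-wide shift in the Hoxc4 result was not tested.

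The RNase H peaks and the untreated peaks of Hoxc4 lay in different places. RNase H coverage began at 102865260 in 3 of 3 libraries, the base after an SspI cut, and ran over coding sequence and the 3′ untranslated region into the added bases, with a highest fold enrichment of 9.25, 8.78 and 7.88. No untreated library had a base covered there. All untreated coverage lay before that cut, where the RNase H libraries had 0. Within 1 kb of the gene start RNase H minus untreated was -93 bases (adjusted p = 0.680). The RNase H libraries are the negative control of the design. Of all protein-coding genes 13.5% had a peak in at least 1 RNase H library and 3.07% in 3 of 3. Of the 40 Hox records 3 had such a peak, namely Hoxc4 in 3, Hoxc9 in 1 and Hoxb3 in 1.

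Hoxb3, a hindbrain patterning gene, was called only in the siDDX1 RNase H library, by a peak of 269 bases (chromosome 11, 96190093 to 96190361) with a fold enrichment of 5.08. The difference did not pass (adjusted p = 0.322).

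Genes that act with or on Hox genes are described by their counts, beside all protein-coding genes, of which 49.9% were called in at least 1 untreated library and 26.2% in 9 of 9. Of 9 genes for TALE homeodomain proteins (Pbx, Meis and Pknox families), which bind DNA together with Hox proteins, 8 were called in at least 1 untreated library, and Pbx2 and Meis1 were called in 9 of 9. Of 19 upstream regulators 14 were called at least once and 9 in 9 of 9. These 9 were Ezh2, Eed, Bmi1 and Ring1, which encode Polycomb proteins, Kdm6b, which encodes a demethylase that opposes them, Mll1 and Men1 of the trithorax side, the retinoic acid receptor gene Rara, and Ctcf, which encodes an insulator protein. Cdx1, Cdx2, Cdx4, Egr2 and Rarb, regulators used in the embryo, were called in no untreated library. Cdx1, Cdx4 and Egr2 had no peak in any list and did not enter the RNase H test. Of the regulators tested, 7 were lower and 0 higher, beside 38.2% of all genes tested that were lower and 2.1% that were higher. Pbx2 was among the TALE genes that passed, lower after RNase H.

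Other homeobox genes were mostly without peaks, like Hoxa, Hoxb and Hoxd. Of 33 records outside the clusters 8 were called at least once. Phox2a, which encodes a factor that specifies sympathetic neurons, the lineage of neuroblastoma, was called in 9 of 9 with a covered share of 70.9%. Pax6 was called in 3 untreated and 3 RNase H libraries and was higher after RNase H (1296 bases, adjusted p = 0.0388). Of 10 neighbours of the clusters 4 were called at least once and 0 in 9 of 9, with Calcoco1 beside Hoxc and Lnp beside Hoxd in 8 of 9. None of the genes of these lists passed across the 3 groups (adjusted p = 1 for every one tested), and the unadjusted p was under 0.05 for Men1 of the regulators and for Otx1 and Pax6 of the homeobox genes.

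The cell type was checked through peaks only, since these data hold no expression. Of 16 markers of neuroblastoma and sympathetic neurons 10 were called at least once and 6 in 9 of 9, among them Phox2a, Hand2, Gata2, Chga and Tubb3. Th, Dbh, Stmn2, Nefl and Nefm were among those called in none. Over all protein-coding genes the same shares were 49.9% and 26.2%, so the counts alone do not set these markers apart. Of 9 markers of liver, muscle, lymphocytes and astrocytes 1 was called, Gfap in 4 of 9, and none in 9 of 9.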

How the data were processed

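Peak lists of 12 DRIP-seq libraries were analysed, and 1 input sample was not analysed here. The authors aligned reads to mm9 with Bowtie2 2.4.4 and called peaks for each library alone with MACS2 2.2.6 against input. The deposited lists give the fold enrichment as a linear ratio and the −log10 q-value, both as the authors' caller wrote them. The authors' DESeq2 test of read counts was not repeated, since counts were not used here. Python 3.11.15 with numpy 2.4.6, scipy 1.17.1, pandas 2.3.3 and matplotlib 3.10.9 was used. Overlapping peaks of a library were joined, and covered bases were counted in gene windows of the GENCODE vM1 annotation. No peak passed a chromosome end of the mm9 sequence used. Group tests and RNase H tests were exact permutation tests with Benjamini-Hochberg adjustment, with genes named by a rule (the 2 members of a cluster with the highest covered share, the 5 with the lowest p across groups, members called in all libraries of one group and none of another, and members with an RNase H peak). The code was tested on simulated data. Groups go by title, not by the treatment in the peak names. Kmt2a was looked up as Mll1, its symbol in the annotation. The members and gene lists were chosen with earlier results of these data known. Alternatives changed the window, the −log10 q threshold (at least 5), the number of peaks, the minimum overlap (100 bases), joining (1000 bases) and the libraries. Calls per gene have only 2 states, and a change of signal within a peak does not alter covered bases. Some genes of these lists and some sequences are not reported here.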

Additional observations from a re-analysis of the deposited data

Results flagged for a closer look

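Peaks over Mir196a-2, a microRNA gene between Hoxc10 and Hoxc9 (chromosome 15, 102803772 to 102803881, mm9, plus strand), lay outside every member window and entered no comparison. They were present in 2 of 9 untreated lists, siScramble replicate 2 and siEXOSC3 replicate 1, and in 0 of 3 RNase H lists. The fold enrichment was 4.36 and 4.37, below the median of 5.29 over the Hoxc peaks. The difference between untreated and RNase H lists was not tested for this gene.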

How the results depend on the processing

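Without extension of the gene bounds the mean number of called Hox genes was 3.33 in siDDX1 (4.33 as reported). With 1 kb on each side of the start it was 2 in siDDX1 and 2.33 in siEXOSC3 (3.33 as reported). With −log10 q of at least 5 it was 3 in siDDX1 and 2.67 in siEXOSC3, and with equal numbers of peaks 3.33 in siDDX1. The covered percentage was 3.53 in siEXOSC3 around the start, and 1.57 in siScramble and 1.79 in siEXOSC3 at the stricter q. Leaving out 1 library gave 4 to 4.5, 3 to 3.5 and 3 to 4.5 genes in siDDX1, siEXOSC3 and siScramble, and 0.906% to 2.25%, 2.2% to 2.69% and 2.00% to 2.50% covered. For calls in all libraries of one group and none of another, 0 Hox genes of 217 in all met the rule as reported. With equal numbers of peaks 1 Hox gene of 283 did, Hoxc6, called in all siEXOSC3 and no siScramble libraries. Leaving out 1 library gave 0 to 1, with Hoxc5 called in both remaining siDDX1 and no siEXOSC3 libraries without siDDX1 replicate 1 (644 genes in all), and Hoxc4 in all siDDX1 and neither remaining siEXOSC3 library without siEXOSC3 replicate 1 (411 in all). For RNase H, 3 Hox genes of 4887 in all passed as reported, and 0 of all genes passed around the start or with equal numbers of peaks. Joining peaks ended the Hoxc9 call (adjusted p = 0.0694) and the stricter q ended the Hoxc8 call (adjusted p = 0.0761), which left 2 Hox genes each time. Leaving out 1 library gave 0 to 3 Hox genes and 0 to 5511 in all. The Hoxc4 difference after RNase H turned to -93 bases around the start. Across the groups 0 genes passed under any alternative, and leaving out 1 library gave 0 to 0. With the replicate block, 0 genes passed (5 Hox genes tested, p 0.333 to 0.833, 216 assignments). Deviations from the group mean had r from -0.81 to 0.84 between same-numbered libraries and from -0.87 to 0.84 between libraries of unlike number. The same-numbered libraries therefore did not stand out. Each mean rests on 3 libraries and the lists differ in length, so these values cannot settle whether the numbers pair the libraries. For Hoxc8 the unadjusted p across groups was 0.0321 at the stricter q and with equal numbers of peaks, with adjusted p of 1 and 0.818.

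The limits are those of peak lists. Read depth is unknown here, 3 libraries a group leave the smallest group p at 0.00357, and 1 RNase H library a group gives no spread within a group.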

Other observations

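The clusters hold 33 annotated gene records besides the members, among them microRNA and long noncoding RNA genes. The only ones with an untreated peak lay in Hoxc. Gm20398, a noncoding transcript that runs through Hoxc on the same strand (102797874 to 102846107), had one in 9 of 9 untreated lists, and its bounds include Hoxc9, Hoxc8 and Hoxc6, so peaks over it cannot be told apart from peaks over those genes. Mir615 inside Hoxc5, Mir10a and Mir196a-1 in Hoxb, Mir10b in Hoxd and Mir196b in Hoxa had none. Gm16258, the Hotair gene of the Hoxc cluster, also had none.

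A peak outside every member window lay between Hoxb13 and Gm53 on chromosome 11 in 3 of 3 RNase H lists and in 0 of 9 untreated lists. It began at base 96102572 in all 3, next to an EcoRI cut, was 242 to 245 bases wide and had a fold enrichment of 5.01, 5.54 and 5.65.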
